A study of Mus musculus with 6 samples.

Results

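Imprinted genes are transcribed mainly from the copy inherited from 1 parent, and they were examined here in mouse embryonic stem cells that carry a truncated Dido3 protein. A list of 47 such genes was matched by gene symbol to the probe sets of the array, and 42 of them were measured among 18193 genes in all. H19, Slc22a3, Begain, Dio3 and Zrsr1 were not analysed here. Where a gene had several probe sets, the brightest over the 6 arrays stood for it, and its other probe sets were read as a check. The study hybridised RNA of wild-type cells to 3 arrays and RNA of cells labelled Dido3deltaCT to 3 more; in the latter, Dido3 lacks its C-terminal part. All were biological replicates cultured in parallel with leukemia inhibitory factor (LIF). Dido3 is the longest protein of the gene Dido1, and the series addresses how it acts on self-renewal and differentiation. The labels do not say how many independent lines either group holds, so the p-values measure the spread between these cultures, which may be that within 1 line.

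Most imprinted genes lie in domains ruled by a control region whose DNA is methylated on only 1 parental chromosome. The mark is set in the germ line and then kept through the divisions of the early embryo by Dnmt1 with Uhrf1 and by the zinc finger protein Zfp57, which binds methylated TGCCGC and brings in Trim28 and Setdb1. Many domains pair protein-coding genes with a long noncoding RNA read from the opposite chromosome, such as Kcnq1ot1 over the Cdkn1c domain, Airn over Igf2r and Meg3 beside Dlk1. Cultured embryonic stem cells are known for unstable imprints, and maternally and paternally expressed members often act against each other on growth. Which parental copy each gene uses, and the domain it lies in, are taken here from textbook knowledge. The arrays read the sum of both copies, so nothing below measures allelic expression.

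Promoters were taken from RefSeq windows of assembly GRCm38.p6 that run from 250 bases before to 50 after a transcription start, and 39 of the 47 genes had at least 1. Cdkn1c, Kcnq1, Nap1l4, H19, Peg10, Sgce, Impact and Trappc9 were not matched. The motif TGCCGC, searched on both strands, stood in 14 of 65 windows of the listed genes (21.5%), against 3813 of 32851 windows of all genes (11.6%). By gene, at least 1 window held it in 13 of 39 listed genes (33.3%) and in 3527 of 27025 genes in all (13.1%). It was found for 5 of 17 maternally and 8 of 21 paternally expressed genes. Listed genes had more windows per gene, 65 for 39 against 32851 for 27025, which raises their share by gene. Overlapping windows were each counted, such as those of Mest from 30737800 and 30737803 with the same motif copies. The windows of the listed genes held a median of 17 CpG dinucleotides, against 7 over all windows, and the part of base composition in these shares was not tested. Upstream sequences of 5 genes with differences between the groups are printed to show how the motif is placed, 5′ to 3′ on the strand of the gene, up to the base before the start, with TGCCGC or its reverse complement GCGGCA in capitals. The Zdbf2 stretch, from its upstream start, held 3 copies, those of Plagl1 and of Meg3 held 1 each, and those of Phlda2 and Dlk1 held 0. Zdbf2 and Meg3 have a second window each, from the starts with upstream bases chr1:63273019-63273268 and chr12:109545148-109545397, and both held 0. A match describes these letters in this window and is not a site, and its absence says nothing about the factor.
Zdbf2, chr1:63200108-63200357, plus strand: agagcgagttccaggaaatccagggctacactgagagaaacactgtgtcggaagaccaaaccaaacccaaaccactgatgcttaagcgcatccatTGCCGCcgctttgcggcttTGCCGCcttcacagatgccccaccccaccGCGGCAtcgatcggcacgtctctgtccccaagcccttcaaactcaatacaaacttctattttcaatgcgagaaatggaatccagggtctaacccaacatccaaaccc
Plagl1, chr10:13090582-13090831, plus strand: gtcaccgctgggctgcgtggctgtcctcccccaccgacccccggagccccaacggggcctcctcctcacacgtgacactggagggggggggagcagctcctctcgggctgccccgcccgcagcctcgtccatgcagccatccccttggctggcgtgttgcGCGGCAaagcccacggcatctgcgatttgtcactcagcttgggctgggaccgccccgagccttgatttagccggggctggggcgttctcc
Meg3, chr12:109540746-109540995, plus strand: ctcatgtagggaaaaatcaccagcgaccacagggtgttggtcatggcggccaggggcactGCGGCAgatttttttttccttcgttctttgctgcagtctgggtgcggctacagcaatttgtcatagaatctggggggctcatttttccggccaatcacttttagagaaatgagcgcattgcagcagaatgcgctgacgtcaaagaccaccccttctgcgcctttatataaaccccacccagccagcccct
Dlk1, chr12:109452573-109452822, plus strand: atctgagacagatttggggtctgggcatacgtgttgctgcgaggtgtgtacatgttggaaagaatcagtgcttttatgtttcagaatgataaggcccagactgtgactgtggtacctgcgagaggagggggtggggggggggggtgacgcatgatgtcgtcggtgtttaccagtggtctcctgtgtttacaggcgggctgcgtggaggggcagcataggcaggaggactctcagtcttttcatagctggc
Phlda2, chr7:143502525-143502774, minus strand: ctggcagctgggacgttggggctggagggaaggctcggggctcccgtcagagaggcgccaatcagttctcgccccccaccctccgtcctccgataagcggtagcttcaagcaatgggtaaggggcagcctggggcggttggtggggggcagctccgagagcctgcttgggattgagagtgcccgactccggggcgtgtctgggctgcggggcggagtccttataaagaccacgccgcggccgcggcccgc

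All levels are log2 expression values of probe sets. Differences are on that scale, positive where truncated cells were higher, with a standard error (SE) from the limma fit, and group levels are given as mean ± SD. A gene was said to rise or fall when its Benjamini-Hochberg adjusted p-value over 18193 genes was under 0.05. The expression limit was 4.83, the median over all probe sets other than controls, and 34 of the 42 measured imprinted genes lay above it.

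Array medians ran from 4.8 to 4.86. Wild-type replicate 3 and truncated replicate 2 stood apart: the mean of 27 poly-A spike-in control probe sets was 11.1 and 11.4 on these arrays, against 5.79 to 7.32 on the other 4. The same arrays were low in fibroblast transcripts, the cells on which stem cells are often grown. The mean of 21 fibroblast markers, 20 of them above the limit, was 5.33 and 6.46 there, against 7.73 to 8.26 elsewhere, and none of the 21 passed the test between the groups. Differences of the genes described at length are therefore also given within the other 4, called low-spike arrays, and within the pair. Of the 34 imprinted genes above the limit, 8 lay on opposite sides of 0 in these 2 comparisons: Igf2, Mest, Nnat, Ppp1r9a, Osbpl5, Nap1l4, Ddc and Gnas. Embryonic stem cell markers averaged 11.11 to 11.26 on every array, and none of the 9 passed the test. The groups did not overlap in 7 of them, or 77.8%, against 28.8% of all genes above the limit. Of these 7, 5 were higher and 2 lower in truncated cells, among them Nanog by 0.48 and Tdgf1 by −0.46. The 6 measured trophoblast markers averaged 4.69 to 4.91, with Elf5 and Tpbpa below the limit and Cdx2, Eomes, Hand1 and Plet1 above it. None of them passed. Eomes differed by −0.65 with overlapping values (adjusted p = 0.22) and Hand1 by 0.29 without overlap (0.336). Of 8 markers of extraembryonic endoderm, 6 lay below the limit, Gata4, Gata6 and Sox17 among them. The brightest probe set of the targeted gene Dido1 fell from 8.38 ± 0.19 to 6.88 ± 0.35 (n = 3 each, adjusted p = 0.0104). Of its other 3 probe sets above the limit, tested over all probe sets, 1437647_at fell by 1.47 (adjusted p = 0.00106), 1437182_at was 0.68 higher without overlap (adjusted p = 0.0721) and 1431258_at differed by 0.05 (0.869); which of them lie in the truncated part was not checked. The groups also differed in Y-linked genes, of which 3 of the 4 measured fell. Eif2s3y read 8.43, 8.61 and 8.69 in wild-type cells and 3.76, 3.43 and 3.86 in truncated cells. Uba1y differed by −3.09 (adjusted p = 0.0039) and Uty by −1.29 (0.0123), while Kdm5d lay below the limit. Xist rose by 0.57 (adjusted p = 0.0483). Whether the cells of the groups differ in their sex chromosomes was not tested. Every difference below lies between groups that also differ in these transcripts, and their part in it was not tested. In bulk RNA, fewer cells of a type and less RNA per cell cannot be told apart.

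Of the 42 measured imprinted genes, Zdbf2, Dlk1 and Meg3 rose, Phlda2 fell, and 38 did not pass. The 4 calls are 9.52% of the measured members; over all genes 850 of 18193, or 4.67%, were called, 2.70% upward and 1.97% downward, and 6.54% of those above the limit. The groups did not overlap in 19 members, 12 higher and 7 lower in truncated cells, which is 45.2% of those measured against 22.4% of all genes and 28.8% of those above the limit. The median size of the difference was 0.32 over the 42 members and 0.13 over all genes. These counts describe the list and were given no test. The 38 genes that did not pass differed by −1.08 to 2.13, so some of the largest differences were among them.

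**Figure D1:**
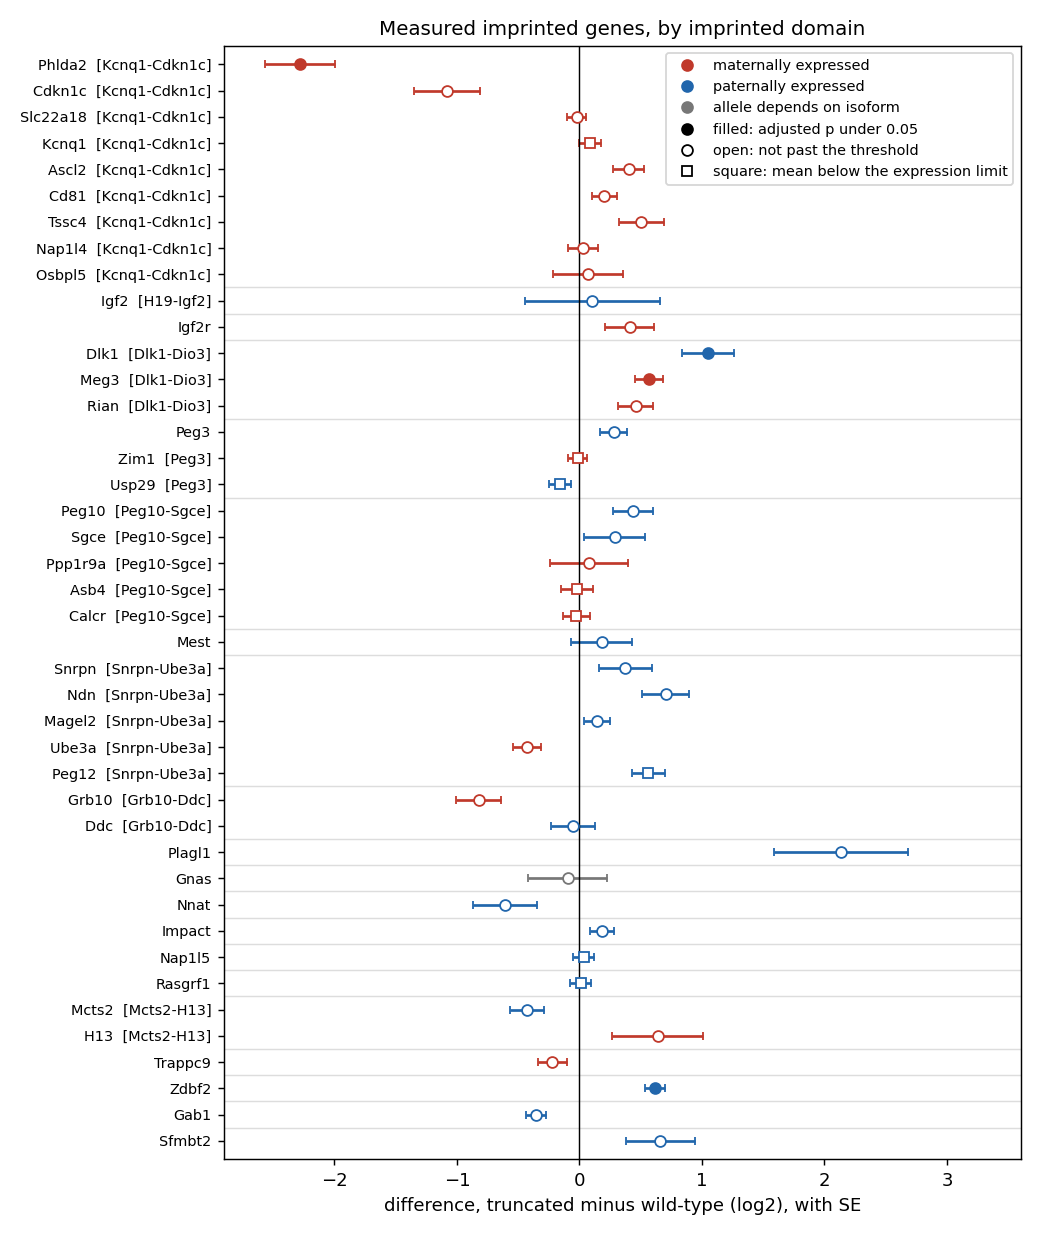
Difference between truncated and wild-type cells (log2, horizontal axis, with SE) for the 42 measured imprinted genes, grouped by domain and coloured by the copy that is expressed. Filled points passed the threshold, open points did not, and squares mark the 8 genes below the expression limit; Phlda2 lies farthest to the left at −2.28 and Plagl1 farthest to the right at 2.13.

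The domain of Kcnq1 and Cdkn1c on chromosome 7 held the member that fell. Phlda2, a small protein with a pleckstrin homology domain that restrains growth of the placenta, read 9.05, 8.95 and 8.29 on the wild-type arrays and 6.33, 7.01 and 6.12 on the truncated arrays. Every truncated array lay more than 1 unit below every wild-type array. Its mean fell from 8.77 ± 0.41 to 6.49 ± 0.46 (n = 3 each), which is 4.85-fold; on the log2 scale that was −2.28 (SE 0.28, adjusted p = 0.00961). The difference was −2.77 in the 4 low-spike arrays and −1.28 within the pair. Without wild-type replicate 2, or without replicate 1 or 3 of the truncated cells, it was −2.18, −2.20 and −2.09, and the call was lost each time (adjusted p = 0.0573, 0.0726 and 0.0574).

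Cdkn1c, which encodes the cyclin-dependent kinase inhibitor p57, lay in the same direction and missed the threshold. It read 6.90, 7.34 and 7.01 in wild-type cells and 5.93, 6.57 and 5.50 in truncated cells, so the groups did not overlap. The difference was −1.08 (SE 0.27, adjusted p = 0.0770), with −1.40 in the 4 low-spike arrays and −0.44 within the pair. Among the 18 alternatives its adjusted p ran from 0.0144 to 0.263 and passed in 6, among them the 4 arrays alone (0.0427) and the fit without truncated replicate 2 (0.0330).

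No other maternally expressed member of that domain passed. Ascl2, a transcription factor needed for the spongiotrophoblast, differed by 0.40 (adjusted p = 0.150), with 0.58 in the 4 low-spike arrays and 0.04 within the pair. Tssc4 differed by 0.51 (0.201), the tetraspanin gene Cd81 by 0.20 (0.370), the lipid transfer gene Osbpl5 by 0.07 (0.944) and the histone chaperone gene Nap1l4 by 0.03 (0.947). These 5 genes are known for imprinting that is largely limited to the placenta. Slc22a18, a membrane transporter, differed by −0.02 (adjusted p = 0.937). The potassium channel gene Kcnq1 was below the limit on all arrays, at 4.13 to 4.36.

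Kcnq1ot1, which is not on the list of 47 genes, is the long noncoding RNA read from the paternal copy through the Kcnq1 gene on the opposite strand, and it is needed for the silencing of this domain on that chromosome. It read 7.28, 7.36 and 7.28 in wild-type cells and 8.36, 8.39 and 8.17 in truncated cells. The spread within each group was small against the gap of about 1 unit between them. The mean rose from 7.31 ± 0.05 to 8.31 ± 0.12 (n = 3 each), a difference of 1.0 (SE 0.10, adjusted p = 0.00446), and it passed under all 18 alternatives, the omission of each array included. A second probe set above the limit, 1458161_at, rose by 0.88 (adjusted p = 0.0101 over all probe sets), and 4 dimmer ones differed by 0.17 to 0.45 and did not pass. Whether these probe sets read only the antisense strand of Kcnq1 was not checked here.

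**Figure D2:**
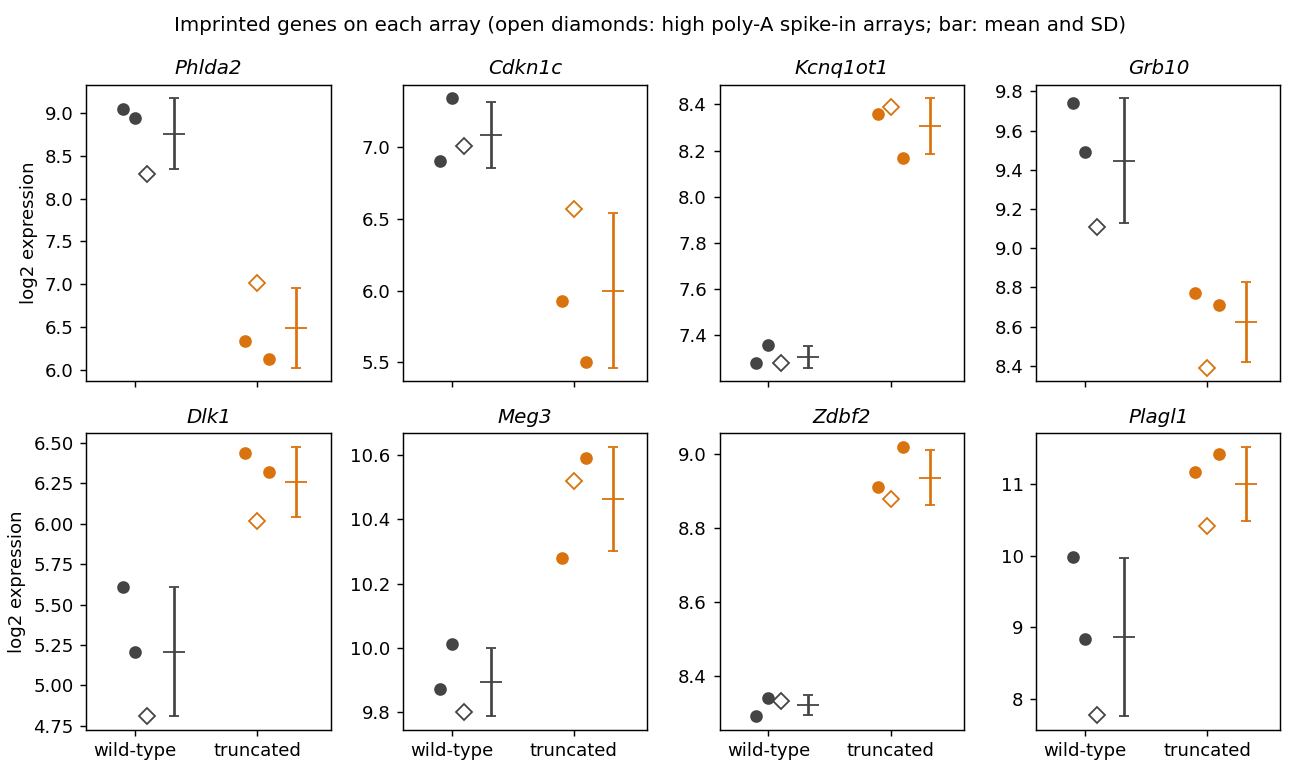
Log2 expression (vertical axes, each scaled to its gene) on the 3 wild-type and 3 truncated arrays for 7 imprinted genes of the list and Kcnq1ot1, with group means and SD as bars. Open diamonds are wild-type replicate 3 and truncated replicate 2, high in poly-A controls; in all 8 genes the groups do not overlap, while the adjusted p was under 0.05 only for Phlda2, Kcnq1ot1, Dlk1, Meg3 and Zdbf2.

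In the Dlk1-Dio3 domain on chromosome 12 all 3 measured genes were higher on every truncated array. Dlk1, a paternally expressed membrane protein of the Delta family that holds back adipocyte differentiation, read 5.61, 5.21 and 4.81 in wild-type cells and 6.44, 6.02 and 6.32 in truncated cells. Its difference was 1.05 (SE 0.21, adjusted p = 0.0447), or 2.07-fold, with 0.97 in the 4 low-spike arrays and 1.21 within the pair. The wild-type mean of 5.21 lay near the expression limit of 4.83, and wild-type replicate 3 lay below it. The size of the rise may therefore be partly against background. The brightest probe set of Dlk1 is of a kind that can cross-hybridise, and its only other probe set, 1442724_at, was below the limit in both groups and differed by 0.18. Leaving out wild-type replicate 2 or truncated replicate 1, 2 or 3 ended the call, with differences of 1.05, 0.96, 1.17 and 1.02 and adjusted p of 0.154, 0.189, 0.0748 and 0.175. Adjusting over all probe sets in place of genes also ended it (adjusted p = 0.0556).

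Meg3, the maternally expressed long noncoding RNA of the domain, read 9.87, 10.01 and 9.80 in wild-type cells and 10.28, 10.52 and 10.59 in truncated cells. The difference of 0.57 (SE 0.12, adjusted p = 0.0447) was small, and its call did not hold with any single array left out (differences 0.50 to 0.66, adjusted p 0.0651 to 0.166). It was also lost with median centring (0.54, adjusted p = 0.0552), with the mean of its probe sets (0.46, 0.0635) and in the 4 low-spike arrays (0.49, 0.130); within the pair the difference was 0.72. Its 11 probe sets disagreed in size. The largest differences among those above the limit were 1.08, 0.92 and 0.89 for 1436713_s_at, 1426758_s_at and 1452183_a_at, of which 1426758_s_at passed over all probe sets (adjusted p = 0.0367). The smallest were 0.09 for 1428764_at and −0.07 for 1452906_at. The second brightest, 1452905_at, differed by 0.17 and represents the gene where probe sets that can cross-hybridise are left out (adjusted p = 0.678). Rian, a maternally expressed host of small nucleolar RNAs, read 7.61, 7.60 and 7.60 against 7.88, 8.38 and 7.94, which did not pass (difference 0.46, SE 0.14, adjusted p = 0.142). Of its other probe sets, 1440001_at differed by 0.39, 1428055_at by 0.16 and 1427580_a_at by −0.01. Mirg, a host of microRNAs from the same stretch that is not on the list of 47, differed by 0.32 (adjusted p = 0.477).

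Zdbf2, a paternally expressed zinc finger gene on chromosome 1, had the tightest values of the genes that rose. It read 8.29, 8.34 and 8.33 in wild-type cells and 8.91, 8.88 and 9.02 in truncated cells, with no overlap. The difference was 0.62 (SE 0.08, adjusted p = 0.0126), or 1.53-fold, and it was 0.64 in the 4 low-spike arrays and 0.56 within the pair. It was read by 1 probe set. Without wild-type replicate 2 or truncated replicate 1 or 3 the differences were 0.63, 0.63 and 0.58, with adjusted p of 0.0584, 0.0723 and 0.0643.

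The largest upward difference among the members was that of Plagl1 on chromosome 10, a paternally expressed zinc finger transcription factor also known as Zac1, and it did not pass. Its brightest probe set read 9.98, 8.84 and 7.77 in wild-type cells and 11.17, 10.42 and 11.42 in truncated cells. The groups did not overlap, but the wild-type values spread over more than 2 units. The difference was 2.13 (SE 0.55, adjusted p = 0.0835), with 1.88 in the 4 low-spike arrays and 2.65 within the pair. In each genotype the lowest value came from the array low in fibroblast markers; the part of fibroblast RNA in this gene's level was not tested. The dimmer probe set 1450533_a_at, of a kind less open to cross-hybridisation, read 4.67, 4.42 and 3.93 against 5.79, 5.42 and 5.75, and it rose by 1.32 (adjusted p = 0.0244 over all probe sets). Its wild-type values lay below the expression limit, so the size of that rise is against background. The third, 1438588_at, differed by 0.27. Over the 18 alternatives the difference of Plagl1 ran from 1.24 to 2.69, and 6 of them passed.

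In the Snrpn-Ube3a domain on chromosome 7, known from the Prader-Willi and Angelman syndromes, none of the 5 measured genes of the list passed. The means of 4 paternally expressed genes were higher in truncated cells, with overlapping values in Snrpn and Magel2. Mkrn3, a paternally expressed gene of the domain that is not on the list and lay below the limit, had a lower mean with overlapping values, at 4.66, 4.30 and 5.60 against 3.94, 4.73 and 3.82 (difference −0.69, adjusted p = 0.406). Ndn, which encodes the growth suppressor necdin, read 8.75, 8.45 and 7.96 in wild-type cells and 9.11, 9.10 and 9.06 in truncated cells, a difference of 0.71 (SE 0.19, adjusted p = 0.101), with 0.49 in the 4 low-spike arrays and 1.14 within the pair. Its 4 other probe sets above the limit differed by 0.56 to 0.83. Snrpn, a splicing protein, read 5.94, 5.83 and 5.67 against 5.97, 6.69 and 5.89; the higher mean came mainly from truncated replicate 2, with a difference of 0.05 in the 4 low-spike arrays and 1.03 within the pair. Magel2, a relative of necdin, differed by 0.15 (adjusted p = 0.564). Peg12 was 0.56 higher without overlap (adjusted p = 0.0678), but lay below the limit at 3.27 to 4.12.

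Ube3a, the ubiquitin ligase of this domain, whose imprinting is known from neurons, read 10.66, 10.75 and 10.57 in wild-type cells and 10.34, 10.05 and 10.31 in truncated cells. The groups did not overlap, and the difference of −0.43 (SE 0.11) had an adjusted p of 0.0882. All 5 of its other probe sets also differed downward, by −0.02 to −0.67, but 1431224_at, 1445727_at and 1425206_a_at lay below the limit. The −0.67 was that of 1445727_at. The mean of the 6 Ube3a probe sets, the dim ones included, passed (−0.40, adjusted p = 0.0317).

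Grb10 on chromosome 11, an adaptor that dampens signalling from the insulin and IGF1 receptors and is maternally expressed outside neurons, stood just outside the threshold. It read 9.74, 9.49 and 9.11 in wild-type cells and 8.77, 8.39 and 8.71 in truncated cells, without overlap. The difference was −0.82 (SE 0.18, adjusted p = 0.0561), with −0.87 in the 4 low-spike arrays and −0.72 within the pair. It passed under 9 of 18 alternatives, among them quantile normalisation (adjusted p = 0.0490) and the fit with the spike-in level as a block (0.00902). Its other probe sets differed by −0.55 for 1425457_a_at and −0.10 for 1430164_a_at, and the mean of all 3 by −0.49 (adjusted p = 0.208). Ddc, the neighbouring gene for dopa decarboxylase, differed by −0.05 (adjusted p = 0.933).

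**Figure D3:**
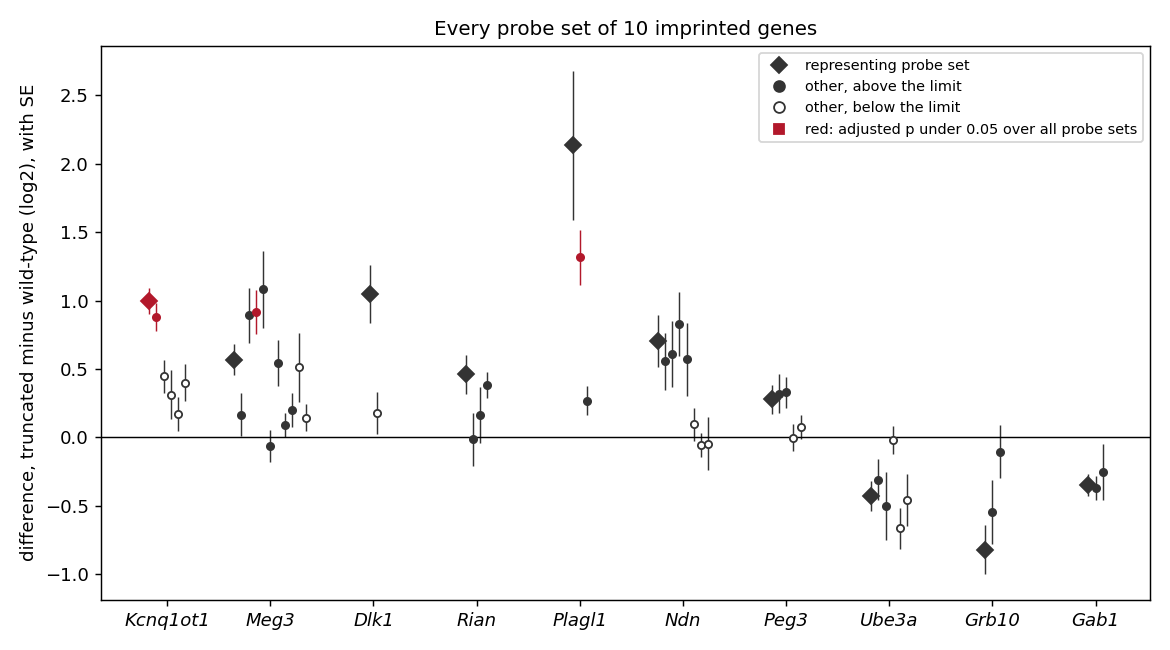
Difference between truncated and wild-type cells (log2, vertical axis, with SE) for every probe set of 9 imprinted genes of the list and Kcnq1ot1. Diamonds are the probe sets that represent the gene, open circles lie below the expression limit, and red marks an adjusted p under 0.05 over all probe sets; the 5 brightest probe sets of Ndn lie between 0.56 and 0.83, and the 11 of Meg3 between −0.07 and 1.08.

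The growth factor gene Igf2, paternally expressed, and its clearance receptor Igf2r, maternally expressed, did not pass. Igf2 read 9.52, 9.30 and 7.34 in wild-type cells and 8.80, 8.55 and 9.13 in truncated cells, so the difference of 0.10 (SE 0.55, adjusted p = 0.957) rested on a spread of 2 units within wild-type cells. It was −0.45 in the 4 low-spike arrays and 1.20 within the pair, and so turned with the arrays compared. Igf2r read 7.15, 7.32 and 6.84 against 7.83, 7.14 and 7.57, a difference of 0.41 (SE 0.20, adjusted p = 0.355), and its second probe set, 1424111_at, differed by 0.07. Airn, the noncoding RNA that silences Igf2r and is not on the list of 47, differed by 0.12 (adjusted p = 0.626).

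In the Peg3 domain, the zinc finger gene Peg3 was higher on all 3 truncated arrays, at 9.42, 9.49 and 9.70 against 9.17, 9.34 and 9.25, but the difference of 0.28 did not pass (SE 0.11, adjusted p = 0.230). Its other probe sets above the limit, 1417355_at and 1417356_at, differed by 0.32 and 0.33. Zim1 and Usp29 lay below the limit. In the Peg10-Sgce domain on chromosome 6, Peg10, a gene derived from a retrotransposon and needed for the placenta, read 5.33, 5.14 and 5.28 against 5.38, 5.71 and 5.99, a difference of 0.44 (SE 0.16, adjusted p = 0.206). Sgce, which encodes a sarcoglycan, differed by 0.29 and the actin-binding gene Ppp1r9a by 0.08 (adjusted p = 0.639 and 0.946). For Ppp1r9a this joins 0.56 in the 4 low-spike arrays with −0.88 within the pair. Asb4 and the calcitonin receptor gene Calcr lay below the limit. Mest, a paternally expressed gene of mesodermal tissue on the same chromosome, differed by 0.18 (adjusted p = 0.791), with −0.24 in the 4 low-spike arrays and 1.03 within the pair.

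Gab1 and Sfmbt2 are paternally expressed in placental tissue, where their imprint is known to rest on histone methylation in place of DNA methylation. Gab1, a docking protein of growth factor receptors, read 11.12, 11.03 and 11.06 in wild-type cells and 10.69, 10.77 and 10.70 in truncated cells. The groups were tight and did not overlap, yet the difference of −0.35 (SE 0.08) had an adjusted p of 0.0660, and its second probe set, 1417694_at, differed by −0.37. The dimmer 1448814_at of Gab1 differed by −0.25 with overlapping values (adjusted p = 0.662 over all probe sets). It turned from −0.50 in the 4 low-spike arrays to 0.24 within the pair. Sfmbt2, of the Polycomb group, was 0.66 higher with overlapping values (adjusted p = 0.278); the difference was 0.47 in the 4 low-spike arrays and 1.04 within the pair. Slc38a4, an amino acid transporter with an imprint of the same kind that is not on the list, read 9.08, 9.15 and 9.02 against 8.17, 8.67 and 8.50, a difference of −0.64 (adjusted p = 0.0548).

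Single imprinted genes elsewhere did not pass either. Of the pair on chromosome 2, the signal peptide peptidase gene H13 differed by 0.64 with an SE of 0.37 (adjusted p = 0.440), wild-type replicate 3 reading 6.68 and the other 5 arrays 8.04 to 8.39. The difference was 0.27 in the 4 low-spike arrays and 1.38 within the pair. A dimmer H13 probe set above the limit, 1438456_at, differed by 0.61 without overlap (adjusted p = 0.0894 over all probe sets). There the difference was 0.59 in the 4 low-spike arrays and 0.65 within the pair. Also above the limit, 1438865_at differed by 0.35 without overlap (0.215) and 1428855_at by 0.04 (0.888). Mcts2 was lower on all 3 truncated arrays, at 8.45, 8.40 and 8.45 against 9.16, 8.76 and 8.67 (difference −0.43, adjusted p = 0.152); it is a retrocopy of Mcts1, and reads of the 2 genes may not be separable on the array. Nnat, the gene for neuronatin, differed by −0.61 (adjusted p = 0.279), and its direction turned with the arrays compared, from −0.99 in the 4 low-spike arrays to 0.17 within the pair. Trappc9 differed by −0.22 (0.399), Gnas, the Gs alpha locus whose expressed copy depends on the isoform, by −0.09 (0.933), and Impact, an inhibitor of the kinase Gcn2, by 0.19 (0.385). Nap1l5 and Rasgrf1 lay below the limit at 3.02 to 3.14 and 3.25 to 3.39.

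By the copy that is expressed, 1 of 20 measured maternally expressed genes rose and 1 fell, and 2 of 21 paternally expressed genes rose and 0 fell, against 4.67% of all genes called. The median difference of the genes above the expression limit was 0.07 over 16 maternally expressed genes and 0.28 over 17 paternally expressed genes, against −0.01 over all 11706 genes above it. Over all measured genes of either kind it was 0.05 and 0.19. Truncated means were higher in 11 of the 20 maternally and 16 of the 21 paternally expressed genes, and groups that did not overlap were higher in 4 and lower in 4 of the former, and higher in 8 and lower in 3 of the latter. Over all genes the truncated mean was higher in 9430 of 18193, and 22.4% did not overlap. Array medians overlapped between the groups for the genes above the limit. For maternally expressed genes they were 7.42, 7.61 and 7.31 in wild-type and 7.80, 7.31 and 7.76 in truncated cells, and for paternally expressed genes 8.32, 8.37 and 7.95 against 8.35, 8.55 and 8.35. Whether the 2 kinds differed was not tested. Of the 8 measured genes known for imprinting limited to the placenta, 0 passed the test, and the groups did not overlap in 3 (37.5%). Of 28 with imprinting known from many tissues 3 rose and 1 fell (14.3%), and the groups did not overlap in 15 (53.6%). Of 6 with imprinting known from certain other tissues, 0 passed, and the groups did not overlap in 1 (16.7%). With 4.67% of all genes called, sets of 8 or 6 genes are too small for 0 calls to set them apart. Most genes of placental imprinting, such as Ascl2, Cd81 and Tssc4, are maternally expressed. The split by expressed copy therefore also mixes the tissues of imprinting. Whether these sets differed was not tested.

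The arrays that differed in fibroblast markers were also compared within each genotype. On wild-type replicate 3, 27 of the 34 imprinted genes above the limit were below the mean of the other 2 wild-type arrays, and 4 of them by more than 1 unit: Igf2 by −2.07, Plagl1 by −1.64, H13 by −1.38 and Gnas by −1.04. On truncated replicate 2, 21 of the 34 were below the mean of the other 2 truncated arrays, and 0 by more than 1 unit. Over all 11706 genes above the limit, 6280 and 6300 were lower on these arrays, and 321 and 104 by more than 1 unit. For comparison, 16 and 12 of the 20 fibroblast markers above the limit were lower by more than 1 unit on these arrays. Of the 4 genes that changed, Zdbf2 and Meg3 differed least between the arrays of a genotype, by 0.01 and −0.14 in wild-type and by −0.08 and 0.09 in truncated cells. Phlda2 differed by −0.71 in wild-type and 0.78 in truncated cells, and Dlk1 by −0.60 and −0.36. With the fibroblast mean as a covariate, the differences of Phlda2, Zdbf2, Dlk1 and Meg3 were −2.29, 0.62, 1.02 and 0.56. Each had an adjusted p under the threshold (0.00503, 0.00807, 0.00398 and 0.0275). The covariate raised the number of genes called in all from 850 to 1968, so lower p-values were not particular to these 4 genes. The part of fibroblast RNA in their levels was not tested.

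**Figure D4:**
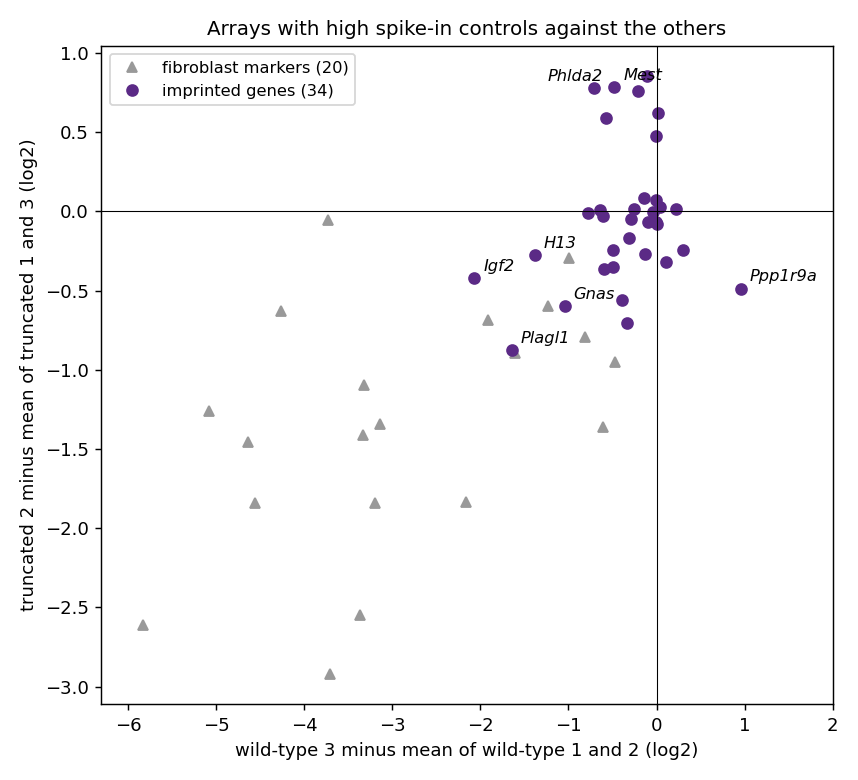
Log2 level of each gene on the array with high poly-A controls minus the mean of the other arrays of the same genotype, for wild-type (horizontal axis) and truncated cells (vertical axis). Triangles are the 20 fibroblast markers and circles the 34 imprinted genes above the expression limit; the markers lie below 0 on both axes, and Igf2, Plagl1, H13 and Gnas lie lowest among the imprinted genes on the horizontal axis.

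The genes that set and keep imprints mostly did not pass the test. Of 18 measured, all above the limit, 0 rose, 1 fell and 17 did not pass. That share, 5.56%, is close to the 6.54% of all genes above the limit. The truncated mean was higher in 3 of the 18, against 5641 of 11706 genes above the limit. Their median difference was −0.16, against −0.01. The groups did not overlap in 6, 2 higher and 4 lower in truncated cells, which is 33.3% against 28.8%. These counts were given no test. The one that fell was Dnmt3a, a methyltransferase that sets imprints in germ cells, at 8.37, 8.79 and 8.48 in wild-type and 7.28, 7.72 and 7.20 in truncated cells (difference −1.15, SE 0.18, adjusted p = 0.0181). The mean of its probe sets did not pass (−0.44, adjusted p = 0.140), since 2 of the 5, 1423063_at and 1460324_at, differed by 0.33 and 0.18. Its call was also lost without wild-type replicate 2 or truncated replicate 1 or 3, at −1.03, −1.08 and −1.04 (adjusted p = 0.0746, 0.106 and 0.0938). Among the factors that keep imprints, Dnmt1 differed by −0.43 (adjusted p = 0.0842), Uhrf1 by −0.33 (0.175), Setdb1 by −0.28 (0.226), Zfp57 by 0.42 (0.189) and Trim28 by −0.04 (0.931). Dppa3, which guards imprints in the zygote, differed by −0.24 (0.610), and the insulator protein gene Ctcf by −0.07 (0.844).

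Of 21 further imprinted genes measured, which are not on the list of 47, Kcnq1ot1 rose, Commd1 and Atp10a fell and 18 did not pass; the 3 calls are 14.3% of the list, against 4.67% of all genes. Groups did not overlap in 23.8% of these 21 genes, near the 22.4% of all genes. Commd1, a copper-handling gene that hosts Zrsr1 in an intron, read 9.26, 9.15 and 9.17 against 8.46, 8.53 and 8.54, a difference of −0.68 (SE 0.08, adjusted p = 0.00919). A second probe set, 1424121_at, fell by 0.90 (adjusted p = 0.0195 over all probe sets). The call was lost without truncated replicate 1 or 3 (−0.66 and −0.70, adjusted p = 0.0650 and 0.0526). Atp10a, a lipid flippase beside Ube3a, fell by 0.82 (adjusted p = 0.00961) from values already below the limit, 4.44, 4.71 and 4.70 against 3.79, 3.79 and 3.81. Its brightest probe set is open to cross-hybridisation, and without probe sets of that kind it differed by −0.47 (adjusted p = 0.0736). Leaving out wild-type replicate 2 or truncated replicate 1 or 3 gave −0.77, −0.82 and −0.83 for Atp10a, with adjusted p of 0.0520, 0.0679 and 0.0583.

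The other probe sets of a gene mostly lay on the same side as the brightest. The 42 genes had 107 probe sets, and 13 genes had at least 1 other probe set above the limit. In 10 of these 13 all such probe sets differed in the same direction as the representing one, and in Meg3, Rian and Ppp1r9a they did not. Tested over all 45037 probe sets, 3 of the 107 rose (Zdbf2, 1426758_s_at of Meg3 and 1450533_a_at of Plagl1) and 1 fell (Phlda2), against 1261 or 2.80% of all probe sets called, 1.68% upward and 1.12% downward.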

How the data were processed

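Expression was measured on 6 Affymetrix mouse whole-genome arrays, 3 per group, labelled with biotin in a single amplification cycle per the labels' protocols. The authors deposited log2 expression for each probe set. Of the summarisation and normalisation, no method was given in the sources used here. The values span the range of a log2 scale. Of 45101 probe sets, 64 were controls and were left out, 34945 had 1 gene symbol, 932 had several and 9160 had none; only those with 1 symbol were named. Of these, 34741 matched the RefSeq gene table of GRCm38.p6 by Entrez identifier, with 0 symbols changed.

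The truncated and wild-type groups were compared gene by gene in limma 3.58.1 (lmFit, eBayes; R 4.3.3), two-sided, with no covariate. The array number limits the precision. The fit was tested on simulated data with independent arrays, which lack the array differences seen here. The fit was repeated with quantile normalisation, with median centring, with replicate numbers as blocks, other probe set rules, leaving out dim genes, trended and robust variance, array weights, a spike-in block (control mean over 2 log2 units above the median array), the 4 other arrays alone, the fibroblast mean as a covariate and leaving out each array. The list and all rules were chosen with earlier results of these data known. Named genes are all members, by values where they passed, differed by at least 0.5 above the limit or had probe sets that passed or disagreed, and the genes past the threshold in the lists of further imprinted genes and of genes that set and keep imprints. The genes of these lists named without passing were chosen after their values were seen. Python 3.11.15 with matplotlib 3.10.9 made the plots.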

Additional observations from a re-analysis of the deposited data

How the results depend on the processing

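Over 18 alternatives, 686 of 748 values of the 42 imprinted genes kept their side of the threshold, 26 lost a call, 36 gained one and 0 turned direction while called. None of the 4 called genes passed in all 18, and 10 others passed in at least 1. Against 3 genes that rose, the count was 0 with the replicate block, 1 adjusted over all probe sets, 6 with array weights, 5 with the spike-in block and 8 with the fibroblast covariate, and 0 to 3 with each array left out. Against 1 that fell, it was 2 with the replicate block, quantile normalisation, median centring, the mean of all probe sets, dim genes left out, or trended and robust variance, 5 with array weights or the fibroblast covariate, 4 with the spike-in block, 3 in the low spike-in arrays only, and 0 to 2 with each array left out. For the genes that set and keep imprints, 1 changed, but 4 with array weights or the spike-in block, 2 in the low spike-in arrays only, 3 with the fibroblast covariate and 0 to 2 with each array left out. For the further imprinted genes, 3 changed, but 5 with the spike-in block, 6 with the fibroblast covariate and 1 to 4 with each array left out. Over the 18, the median difference ran from 0.03 to 0.19 for maternally and from 0.19 to 0.41 for paternally expressed genes. In the main fit it was 0.07 and 0.28. All shifts were below the pooled SD of the array medians (0.22 for maternally, 0.18 for paternally expressed genes). That SD is not the spread of a median difference, so it does not test whether the medians were stable. With 5 arrays or 4, fewer samples were tested; the cause of the other shifts was not tested. Same-numbered arrays correlated at 0.29, −0.36 and −0.13 in their deviations from the group means. Wild-type replicate 1 correlated best with truncated replicate 1, and wild-type replicates 2 and 3 with truncated replicates 1 and 2. With 3 arrays per group, these correlations cannot decide whether the numbers mark pairs. Over all genes, 850 were called, 466 with the replicate block, 2057 with array weights, 1569 with the spike-in block, 1968 with the fibroblast covariate, and 129 to 1191 with each array left out.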
